A study of Homo sapiens with 6 samples.

Results

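The 10 genes described here are transcription factors and products that mark luminal breast epithelium: GATA3, FOXA1, ESR1, ELF3 and SPDEF among the factors, and MUC1, AGR2, TFF1, TFF3 and CA12 among the products. They were taken by symbol, as every probe set annotated to them, which gave 32 of the 22277 probe sets in the table and 10 of 11963 named genes. Total RNA was measured on 6 Affymetrix expression arrays, 2 for each of 3 populations of MDA-MB-231, a triple-negative human breast cancer line of mesenchymal character. S1a and S1b are isolates known from work on tumour self-seeding, in which circulating tumour cells return to a tumour (the labels do not give how they were isolated), and the parental line is the unselected population they are set against. None of the groups carries an engineered allele or received a treatment according to the labels, and all were grown subconfluent in DMEM with 10% FBS. Each isolate is a single population, so the spread between its arrays is not the spread between isolates, and the labels call the arrays biological replicates without naming separate cultures.

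In the luminal lineage of the mammary gland, the zinc finger protein GATA3, the pioneer factor FOXA1 and the estrogen receptor ESR1 bind many of the same enhancers and maintain the differentiated state. The ETS factors ELF3 and SPDEF act with them in epithelial and secretory cells. Their products include the transmembrane mucin MUC1, the disulfide isomerase AGR2 of the endoplasmic reticulum, the secreted trefoil peptides TFF1 and TFF3 and the membrane carbonic anhydrase CA12, several of which respond to estrogen in receptor-positive cells. MDA-MB-231 is known as an estrogen receptor-negative line. Markers of both kinds were measured: all 7 listed markers of claudin-low or mesenchymal breast lines (VIM, ZEB1, CAV1, CAV2, CD44, MSN and AXL) lay above the filter level of 44 units introduced below, with a summed signal of 52766 to 58947 units on the isolate arrays and 64394 to 68598 units on the parental arrays. The largest parts of that sum were VIM (means of 19868 units in the isolates and 24223 in the parental line) and CAV1 (10808 and 13283 units). The 7 did not all go one way: ZEB1 averaged 2125 units in the isolates and 1425 in the parental line. Of the epithelial markers, EPCAM averaged 397 units on the isolate arrays and 450.4 units on the parental arrays, and KRT19 averaged 2526 and 2390.5 units, so these were not lacking. Other such markers were less level: KRT8 averaged 885 and 2607 units, KRT18 8680 and 11463 units and ERBB3 58.3 and 35 units, in the same order. The epithelial cadherin CDH1 was at 1.99 to 30 units on the isolate arrays and at 3.83 and 15.9 units on the parental arrays, and the progesterone receptor PGR at 1.22 to 19 units and at 2 and 2.13 units.

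Promoter entries of RefSeq (build GRCh38.p14) were found for 8 members; TFF1 and TFF3 had none. Those of AGR2, MUC1 and CA12, members that fell in the isolates, are shown as the 250 bases before the gene start, 5′ to 3′ on the gene's strand, which is the minus strand for all 3. The windows are chr7:16805000-16805249 for AGR2, chr1:155192916-155193165 for MUC1 and chr15:63381847-63382096 for CA12. Capitals mark matches, on either strand, to 5 short motifs. The TATA box was searched as TATAAA. The site of GATA factors was searched as AGATAA. The forkhead site was searched as TGTTTAC. The core of the estrogen response element was searched as GGTCA. The E-box was searched as CACCTG.
AGR2: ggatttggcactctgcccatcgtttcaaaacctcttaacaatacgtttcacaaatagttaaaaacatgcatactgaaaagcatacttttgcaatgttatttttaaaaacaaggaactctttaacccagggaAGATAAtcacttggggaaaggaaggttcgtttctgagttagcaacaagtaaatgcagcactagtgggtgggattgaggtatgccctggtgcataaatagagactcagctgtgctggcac
MUC1: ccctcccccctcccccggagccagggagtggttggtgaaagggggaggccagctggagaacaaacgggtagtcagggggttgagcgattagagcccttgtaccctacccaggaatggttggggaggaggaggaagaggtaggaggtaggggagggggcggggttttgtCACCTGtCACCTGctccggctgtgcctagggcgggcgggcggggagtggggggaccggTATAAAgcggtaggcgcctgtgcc
CA12: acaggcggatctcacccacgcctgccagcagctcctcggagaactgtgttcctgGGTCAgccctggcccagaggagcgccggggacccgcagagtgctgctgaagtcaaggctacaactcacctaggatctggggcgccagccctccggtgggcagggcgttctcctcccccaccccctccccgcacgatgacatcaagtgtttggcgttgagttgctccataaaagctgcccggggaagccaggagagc

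The AGR2 window held 1 GATA site, 119 bases before the start, and 9.17% of all 35116 promoter windows of this length held one. The MUC1 window held a TATA box 24 bases before the start and a pair of E-boxes at 82 and 75 bases. At least 1 match to these motifs was found in 10.7% and 17.5% of all windows. The shares given here count a match at any position on either strand, not a pair or a set distance. The CA12 window held 1 estrogen response core at 196 bases, found in 32.6% of all windows. The forkhead site, present in 2.98% of all windows, was matched in none of the 3. The GC content was 40.4% for AGR2, 66% for MUC1 and 64.8% for CA12, against a median of 58% over all windows. The motifs were chosen with the sequences in view, and a match of letters is a description and not a binding site.

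GATA3 (chromosome 10, 8045333 to 8075198, GRCh38.p14) was the one of the 5 luminal factors among the members that was called lower in the isolates by its gene value. FOXA1 and ELF3 were not tested, and ESR1 and SPDEF did not pass, which does not show that they were unchanged. The brightest GATA3 probe set read 301 and 269 units on the S1a arrays, 178 and 186 units on the S1b arrays and 611 and 747 units on the parental arrays. All 4 isolate arrays lay below both parental arrays, and S1b lay below S1a without overlap. The means were 285 ± 22.6 units in S1a, 182 ± 6.01 in S1b and 679 ± 96.3 in the parental line (SD, n = 2 each). On the log2(signal + 3.95) scale used for all tests, GATA3 fell by 1.24 ± 0.15 in S1a and by 1.87 ± 0.15 in S1b against the parental line (SE; limma adjusted p = 0.000191 and 1.2e-05, Benjamini-Hochberg over 7791 genes). As these are bulk samples, fewer cells with a transcript and less of it per cell cannot be told apart, here and for every gene that follows.

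The other GATA3 probe sets ran the same way. The next one read 39.3 and 26.9 units in S1a, 0.898 and 22 units in S1b and 80.7 and 103 units in the parental line. Its isolate mean of 22.3 units lay under the filter level introduced next, and it passed through the parental arrays alone, so its ratio is only a bound, at least 2.08-fold lower. The dimmest read 12, 3.43, 3.82 and 15.5 units on the isolate arrays and 43 and 55.5 units on the parental arrays. Its mean of 22.2 units lay under the filter level, the 40th percentile of probe set means (44 units), below which no probe set was tested. In all 3 probe sets every isolate array was thus lower than every parental array.

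FOXA1, which opens chromatin for the estrogen receptor, gave low signals throughout. Its 1 probe set read 7.08 and 1.78 units in S1a, 16.1 and 15.6 units in S1b and 2.45 and 17.2 units in the parental line. The groups overlapped and the gene was not tested. A signal below the filter level is not a call of absence, since detection calls were not used here.

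ESR1, the estrogen receptor alpha gene, is covered by 9 probe sets, of which 8 had a mean under the filter level (4.79 to 30.8 units). The one that passed did so barely, with a mean of 44.2 units. It read 18.3 and 31.3 units in S1a, 23.6 and 82.1 units in S1b and 61.5 and 48.2 units in the parental line, so the S1b arrays alone spanned the parental ones. Its change in the mean of both isolates was -0.66 ± 0.52 on the log2 scale (limma adjusted p = 0.329), with a 95% interval from -1.83 to 0.51. The sign was not stable across probe sets: the mean of all 9 gave 0.40 (limma adjusted p = 0.422). One dim ESR1 probe set lay higher on all 4 isolate arrays, with 5.84, 41.3, 31.5 and 17.8 units there and 5.69 and 4.56 units on the parental arrays, all below 44 units.

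The ETS factor ELF3 was also below the filter level, and its probe sets disagreed. One read 37.3 and 14 units in S1a, 39.4 and 15.4 units in S1b and 12.2 and 5.1 units in the parental line. The other read 7.88 and 8.54 units in S1a, 13.9 and 10.9 units in S1b and 15.8 and 30.4 units in the parental line. The first lay higher and the second lower on all 4 isolate arrays than on both parental arrays, at levels where neither was tested.

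SPDEF, an ETS factor of secretory epithelium, had 5 probe sets, all of the suffix type that can share probes with other transcripts, and 4 passed the filter. The brightest read 81.8 and 136 units in S1a, 83.9 and 94.7 units in S1b and 92 and 149 units in the parental line. The groups overlapped, and the change in the mean of both isolates was -0.26 ± 0.28 (log2, SE, limma adjusted p = 0.483) with a 95% interval from -0.9 to 0.38. A change of 2-fold in either direction lies outside that interval, which is for the mean of both isolates and this probe set. For S1b alone the interval ran from -1.11 to 0.35, which includes a 2-fold fall. In the fit of single probe sets the third brightest was lower in S1b (52.4 and 35.9 units) than in the parental line (140 and 84.9 units), with a log2 change of -1.25 ± 0.39 (limma adjusted p = 0.0276), and the other tested SPDEF probe sets did not pass in S1b.

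MUC1 fell in both isolates, though its probe sets differed. The brightest read 53.6 and 64.7 units in S1a, 40.7 and 10.4 units in S1b and 267 and 328 units in the parental line. Every isolate array lay far below both parental arrays. MUC1 fell by 2.25 ± 0.48 on the log2 scale in S1a (SE, limma adjusted p = 0.00466). The S1b mean of 25.6 units lay under the filter level, and the fall there was at least 6.76-fold (limma adjusted p = 0.000288). The S1a mean was 59.2 ± 7.8 units against 297 ± 43.6 units in the parental line (SD, n = 2 each).

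A dimmer MUC1 probe set ran the same way, with 30.1 and 36.7 units in S1a, 11.8 and 30.4 units in S1b and 112 and 100.1 units in the parental line. Its isolate mean of 27.3 units lay under the filter level, which it passed through the parental arrays alone, and the bound is at least 2.41-fold lower. The remaining one did not part the groups: it read 34 and 35.9 units in S1a, 31.2 and 36.6 units in S1b and 59.6 and 27.2 units in the parental line, and its mean of 37.4 units lay under the filter level.

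AGR2, which folds mucins and other secreted proteins, was lower chiefly in S1b. Its 1 probe set read 48.6 and 84.2 units in S1a, 33.1 and 15.7 units in S1b and 111 and 126 units in the parental line. The 3 populations did not overlap in this order. AGR2 fell at least 2.7-fold in S1b (limma adjusted p = 0.00325), where its mean lay under the filter level. In S1a the change was -0.85 ± 0.44 (limma adjusted p = 0.157), with a 95% interval from -1.84 to 0.14. The difference between S1b and S1a was -1.34 ± 0.44 and did not pass over all genes (limma adjusted p = 0.19), so AGR2 was not shown to differ between the isolates.

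TFF1, an estrogen-responsive trefoil peptide, read 19.4 and 39 units in S1a, 18.8 and 40.4 units in S1b and 134 and 80.5 units in the parental line. The isolates were alike in range and all 4 of their arrays lay below 44 units, while both parental arrays lay above it. The mean parental signal was 107 ± 37.7 units (SD, n = 2), which makes the fall at least 2.44-fold in either isolate. The limma adjusted p was 0.0253 in S1a and 0.0241 in S1b. Both calls ended with no filter on low signals (limma adjusted p = 0.0537 and 0.0507), and each ended without the lower array of its isolate (0.138 without S1a replicate 1, 0.14 without S1b replicate 1). Without parental replicate 1 the mean of TFF1 fell under the filter level and the gene was not tested.

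TFF3, which lies in the same cluster on chromosome 21 as TFF1, had 1 probe set and was not tested (mean 29.3 units). It read 19.1 and 22.5 units in S1a, 19 and 30.3 units in S1b and 76.2 and 8.68 units in the parental line. The parental arrays stood on either side of all the isolate arrays, so TFF3 showed no ordering.

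CA12, a carbonic anhydrase that hydrates carbon dioxide at the cell surface, was lower in the isolates in 4 probe sets. The brightest read 136 and 168 units in S1a, 142 and 121 units in S1b and 254 and 364 units in the parental line. In all 4 probe sets that passed the filter, the isolate arrays lay below both parental arrays. The gene fell by 0.99 ± 0.23 in S1a and by 1.19 ± 0.23 in S1b (log2, SE; limma adjusted p = 0.00655 and 0.00219). The S1a call ended without S1a replicate 1 (log2 change -0.84, limma adjusted p = 0.0508).

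Of the other CA12 probe sets, the brightest read 110 and 95.7 units in S1a, 90.1 and 98.1 units in S1b and 288 and 310 units in the parental line, a log2 change of -1.57 ± 0.18 in the mean of both isolates (limma adjusted p = 8.26e-05). A CA12 probe set with no shared-probe suffix read 98 and 111 units in S1a, 79.8 and 63.3 units in S1b and 188 and 260.3 units in the parental line (log2 change -1.32 ± 0.22). The last that passed had an isolate mean of 40.5 units, under the filter level, and was at least 2.32-fold lower. Its S1a arrays, at 52.6 and 62.9 units, lay above that level, and its S1b arrays, at 15.7 and 30.6 units, below it. The 2 that did not pass had means of 19.2 and 12.2 units and overlapping groups.

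**Figure D1:**
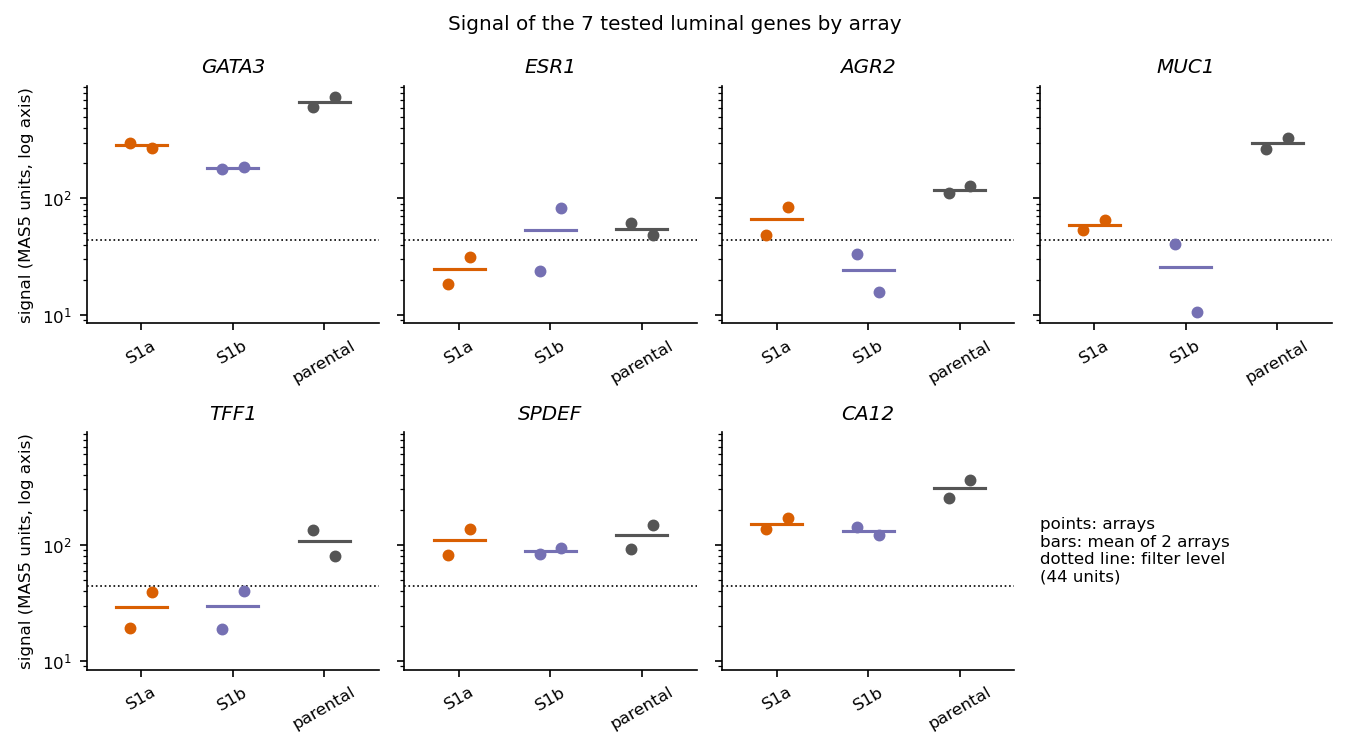
Signal in MAS5 units (log axis) of the probe set used for each of the 7 tested luminal genes on the 2 arrays of S1a, S1b and the parental line; points are arrays, bars are means of 2 arrays and the dotted line is the filter level of 44 units. In GATA3, AGR2, MUC1, TFF1 and CA12 all 4 isolate arrays sit below both parental arrays, and in ESR1 and SPDEF the groups overlap.

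Of the 7 member genes tested, 5 were lower in the mean of both isolates than in the parental line, namely GATA3, AGR2, MUC1, TFF1 and CA12, and none was higher, where 23.5% of all 7791 genes tested were called lower and 22.7% higher. In the same 5 genes all 4 isolate arrays lay below both parental arrays, an order found in 29.7% of all genes tested. The median log2 change of the 7 was -1.52, beside -0.03 over all genes tested. FOXA1, TFF3 and ELF3 were not tested. MUC1, TFF1 and ESR1 had isolate means of 42.4, 29.4 and 38.8 units, below the filter level, and passed it with their parental signals. The S1a mean of MUC1 (59.2 units) and the S1b mean of ESR1 (52.8 units) did lie above it. This count therefore describes the members and supports no statement on them as a class. In S1a against the parental line 4 members were lower (GATA3, MUC1, TFF1 and CA12), beside 19.9% of all genes. In S1b 5 were lower, beside 20.9%. These comparisons share the parental arrays and are not independent of each other.

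By probe set, 15 of the 32 passed the filter and 10 of these were lower in the mean of both isolates, where 22.6% of all 11860 probe sets tested were called lower. Of these 10, 5 had an isolate mean under the filter level (1 of GATA3, 2 of MUC1 and 1 each of TFF1 and CA12). They passed it with their parental signals, so this count is a description too. The S1a means of the brightest MUC1 probe set (59.2 units) and of that CA12 probe set (57.8 units) lay above the level. None was higher, beside 20.1% of all probe sets. In S1b, the comparison in which the SPDEF probe set passed, 20.1% of all probe sets were called lower. All 4 isolate arrays lay below both parental arrays in 12 of the 32 member probe sets, 2 of them untested. The others were the 10 called lower, of 15 tested, while this order held for 29.5% of all probe sets tested. The reverse order was seen in 2, the dim ESR1 and ELF3 probe sets given above, neither of which passed the filter. It was thus seen in none of the tested member probe sets, beside 24.8% of all probe sets tested. Among the 17 untested probe sets, 7 had a lower mean in the isolates than in the parental line.

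**Figure D2:**
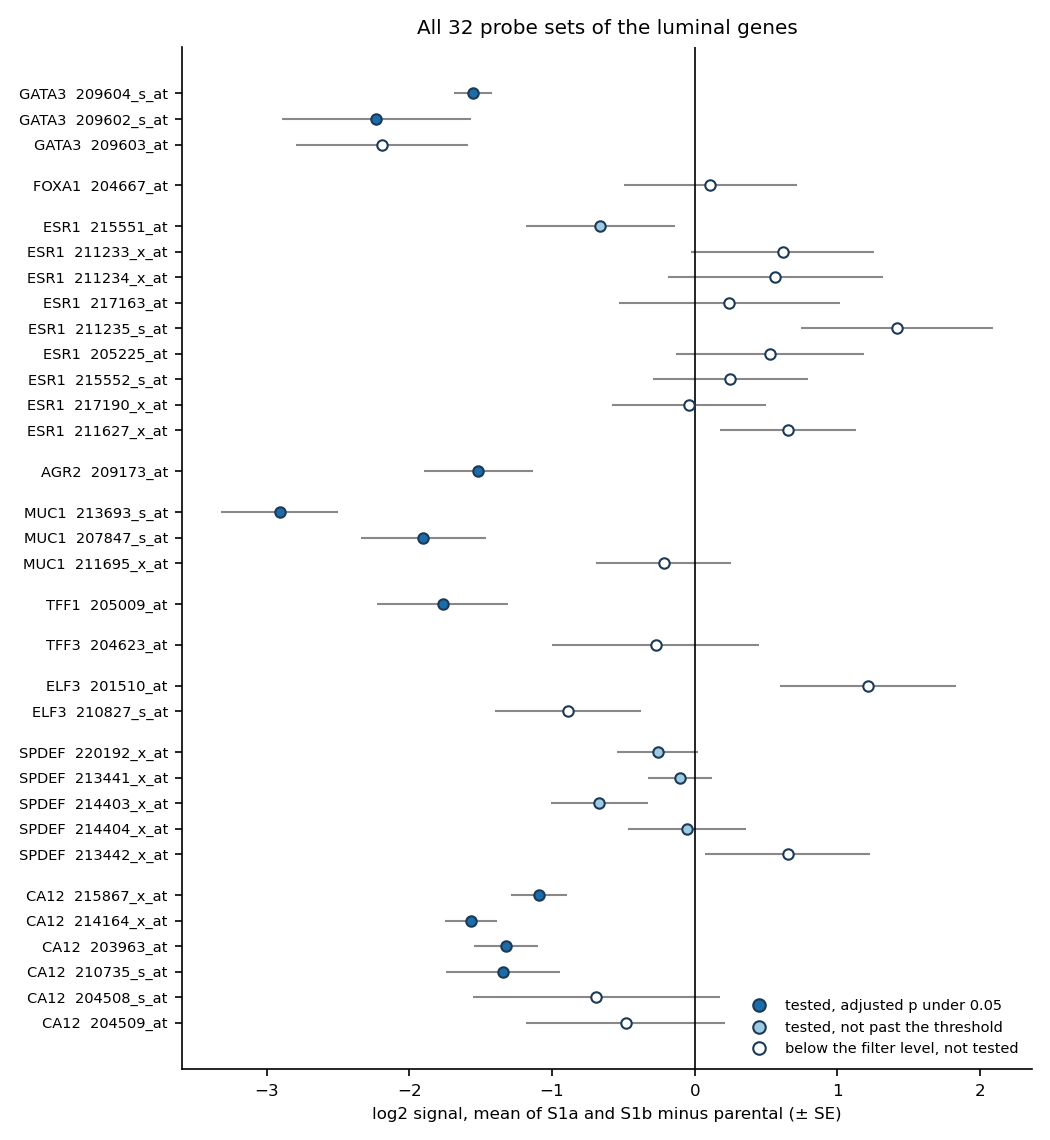
Log2 signal of the mean of S1a and S1b minus the parental line, with its SE, for all 32 probe sets grouped by gene; filled points passed the filter and dark ones the threshold, and open points lay below 44 units, were not tested and are drawn from a fit without the filter. The GATA3 and CA12 probe sets all lie left of 0, whereas those of ESR1, ELF3 and SPDEF lie on both sides.

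**Figure D3:**
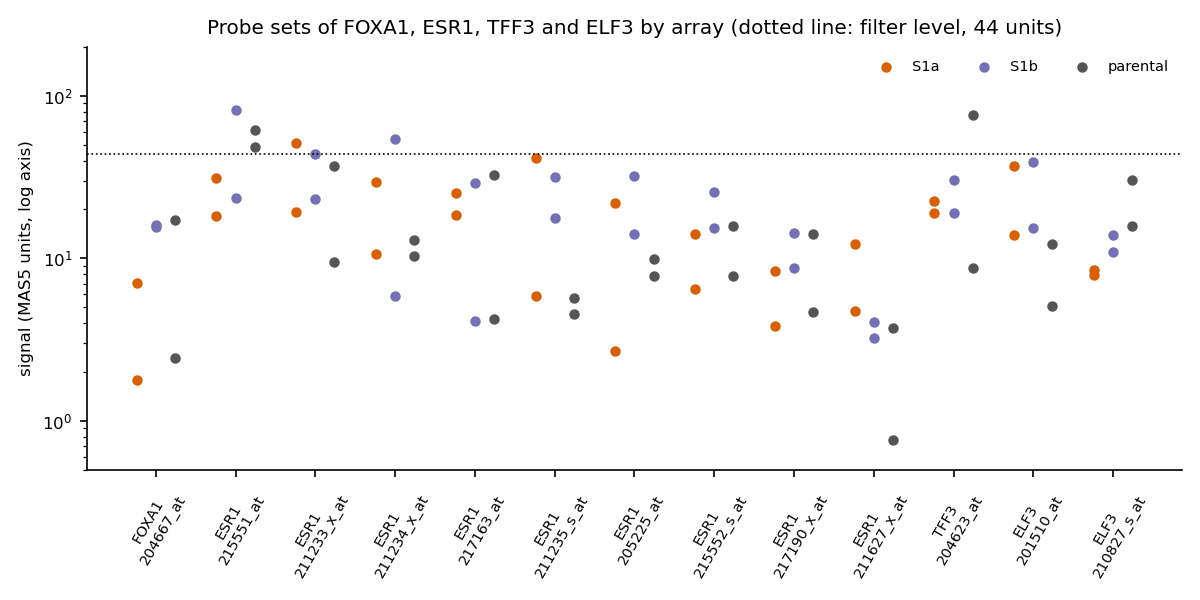
Signal in MAS5 units (log axis) on each array for the probe sets of FOXA1, ESR1, TFF3 and ELF3, with S1a, S1b and the parental line side by side and the filter level of 44 units as a dotted line. Most points lie below the line, and arrays of 1 population often differ as much as arrays of different populations.

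Between the isolates, no member passed over all genes, where 1.89% of genes were called in either direction by limma. At an unadjusted p under 0.05, GATA3, AGR2 and MUC1 were lower in S1b than in S1a, 3 of 7, beside 8.39% of all genes; AGR2 and MUC1 had S1b means under the filter level. GATA3 came nearest, with a log2 difference of -0.63 ± 0.15 (limma adjusted p = 0.0723) and a 95% interval from -0.97 to -0.3. MUC1 differed by -1.31 ± 0.48 (limma adjusted p = 0.229). TFF1 differed by 0.01 ± 0.54, with an interval from -1.19 to 1.2, and CA12 by -0.2 ± 0.23, from -0.7 to 0.3. For GATA3 the adjusted p was 0.0325 without parental replicate 1 and 0.0348 without parental replicate 2, which changes the shared spread and not the isolates' values.

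Family relatives of the members were called in both directions. Of 33 relatives listed, 29 had a named probe set and 9 passed the filter. In the mean of both isolates 5 of the 9 were lower and 1 higher, with a median log2 change of -0.56. Over all genes tested, 23.5% were called lower and 22.7% higher. TFF2 and EHF had isolate means of 13.7 and 36.8 units, under the filter level, and passed with their parental signals. The count is therefore a description. GATA6, a GATA factor of endoderm and heart, read 302 and 271 units in S1a, 244 and 267 units in S1b and 817 and 800.4 units in the parental line. It fell by 1.57 ± 0.11 on the log2 scale (limma adjusted p = 4.14e-06), nearly the amount of GATA3. GATA2, a blood and endothelial GATA factor, read 72.8 and 95.2 units in S1a, 188 and 130.4 units in S1b and 224 and 165 units in the parental line. It fell in S1a (log2 change -1.17, limma adjusted p = 0.00683), whereas its change in S1b was -0.29 (0.426). The S1b and S1a values were not shown to differ (limma adjusted p = 0.152), and the other GATA2 probe sets gave 0.067 and -0.23 in the mean of both isolates. Its call in the mean of both isolates (-0.73 ± 0.23, limma adjusted p = 0.0272) ended with quantile normalization (0.0521), with median centring (0.0595), with no filter (0.0618), with the mean of probe sets (0.323) and without parental replicate 1 (0.173), S1a replicate 1 (0.0643) or S1b replicate 2 (0.083).

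FOXA2, the forkhead paralogue best known from liver, gut and floor plate, was the relative that rose. It read 673 and 708 units in S1a, 596 and 533 units in S1b and 124 and 104 units in the parental line, with no overlap. The rise was 2.42 ± 0.12 on the log2 scale in the mean of both isolates (limma adjusted p = 4.55e-07), a ratio of 5.5. A second FOXA2 probe set, at 248, 266, 224 and 220.1 units on the isolate arrays and 22.9 and 53.3 units on the parental arrays, rose at least 5.44-fold, and the remaining one was under the filter level, at 6.3 to 42 units.

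TFF2, the trefoil gene between TFF1 and TFF3 in the chromosome 21 cluster, read 25.2 and 10.4 units in S1a, 15.2 and 3.83 units in S1b and 187 and 132 units in the parental line. It fell at least 3.63-fold (limma adjusted p = 0.000973), so that 2 of the 3 trefoil genes had parental signals above the filter level on both arrays and isolate signals below it on all 4. EHF, an epithelial ETS factor related to ELF3, read 43.2 and 45.9 units in S1a, 19.1 and 39 units in S1b and 196 and 158 units in the parental line, and fell at least 4.02-fold (limma adjusted p = 0.000604). ELF4 fell by 0.56 ± 0.13 on the log2 scale (limma adjusted p = 0.0067). Its call ended without parental replicate 2 (-0.31, 0.0655) and with median centring (-0.37, 0.0501), under which 3 relatives were lower. Of the remaining relatives tested, ESRRA, ELF1 and ELF2 did not pass, and the 7 other mucin genes and 7 other carbonic anhydrase genes listed had means below 44 units.

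**Figure D4:**
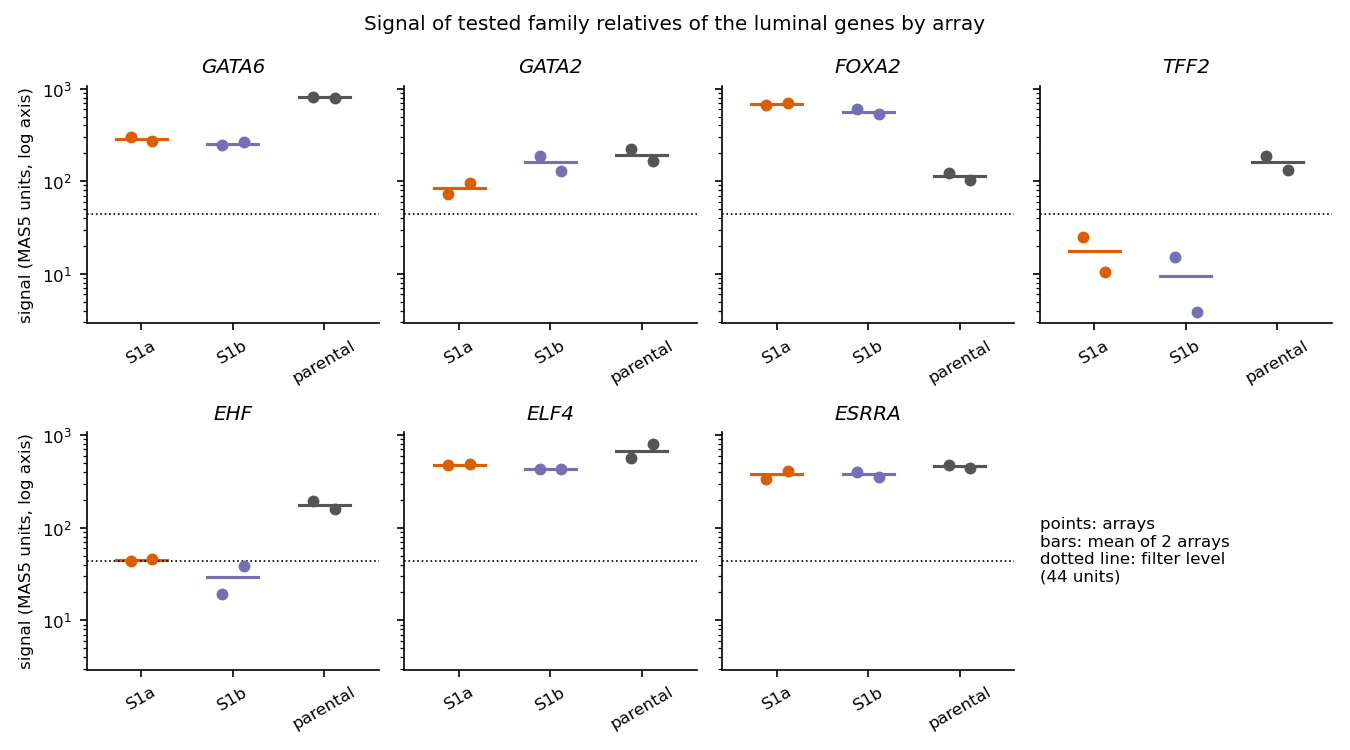
Signal in MAS5 units (log axis) of 7 tested family relatives on the 2 arrays of S1a, S1b and the parental line; points are arrays, bars are means of 2 arrays and the dotted line is the filter level of 44 units. GATA6, TFF2, EHF, ELF4 and ESRRA are lower and FOXA2 is higher on all 4 isolate arrays than on both parental arrays, and in GATA2 the groups overlap. ESRRA did not pass the adjusted threshold.

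Of 10 other luminal and epithelial transcription factors tested, 2 rose, 1 fell and 7 did not pass in the mean of both isolates, with a median of 0.14, where 22.7% of all genes were called higher and 23.5% lower. The AP-2 factor TFAP2C read 1225 and 1107 units in S1a, 1170.5 and 1312 units in S1b and 360 and 356 units in the parental line, and rose by 1.74 ± 0.091 (log2, SE, limma adjusted p = 5.59e-07). CBFB, the partner of RUNX factors, rose by 0.54 ± 0.072. XBP1, a secretory and unfolded protein response factor, fell by 0.24 ± 0.086 (limma adjusted p = 0.0431), but its change with median centring was -0.049 (0.712), and the call also ended with quantile normalization (0.0519), with no filter (0.051), without the variance trend (0.0806) and without any 1 array other than parental replicate 2 (0.0771 to 0.219). The retinoic acid receptor gene RARA gave 0.34 ± 0.19 (0.178), and it passed with quantile normalization (0.52, 0.0427), with median centring (0.53, 0.0457) and without the variance trend (0.0299).

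Among 16 tested estrogen-responsive genes, 5 fell and 1 rose, with a median of -0.06, where 23.5% of all genes were called lower and 22.7% higher. The protease inhibitor SERPINA1 averaged 78.3 ± 2.57 units in S1a, 65.5 ± 3.01 in S1b and 609 ± 8.89 in the parental line (SD, n = 2 each), a log2 change of -3.02 ± 0.17 (limma adjusted p = 9.12e-07). The lysosomal protease CTSD fell by 1.52 ± 0.12, TPD52L1 by 1.78 ± 0.27 and the cytokine receptor subunit IL6ST by 0.57 ± 0.088. The one that rose was the cyclin gene CCND1 (0.46 ± 0.085, limma adjusted p = 0.00172), named after its value was seen; the remaining 11 genes of the list with a named probe set were under the filter level. With median centring, which moves the median change of all genes from -0.03 to 0.16, 5 genes of this list rose.

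Of 13 tested coregulators of ESR1, FOXA1 and GATA3, 4 rose and 2 fell, with a median of -0.06, beside 22.7% of all genes called higher and 23.5% lower. ZFPM2, among those that rose, had a parental mean of 23.9 units, under the filter level, and passed it with its isolate signals (mean 71.9 units). The count is therefore a description. The deacetylase HDAC1 rose by 0.52 ± 0.071 and the Mediator subunit MED1 by 0.41 ± 0.079 (log2, SE; limma adjusted p = 0.000252 and 0.00204). The corepressor TLE3 fell by 0.91 ± 0.16 and the coactivator NCOA1 by 0.54 ± 0.12 (limma adjusted p = 0.00117 and 0.00378).

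Luminal keratins, junction and surface genes were mixed, with 6 of 16 lower, 3 higher and a median of -0.14. The shares of all genes were 23.5% lower and 22.7% higher. TSPAN1, called higher, had a parental mean of 21.7 units, under the filter level, and passed it with its isolate signals (mean 75 units). The count is therefore a description. The keratin KRT7 averaged 384 ± 14.3 units in S1a, 288 ± 13.8 in S1b and 2020.2 ± 161 in the parental line (SD, n = 2 each). KRT8, another simple epithelial keratin, fell by 1.58 ± 0.086 on the log2 scale, and the tight junction claudin CLDN4 fell at least 3.23-fold (limma adjusted p = 0.00152). The CLDN4 isolate mean of 22.6 units lay under the filter level, which the gene passed with its parental signals. The protease inhibitor SPINT2 rose by 0.6 ± 0.068. With median centring 3 of this list were lower and 6 higher.

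Basal and claudin-low markers also went both ways, with 5 of 17 higher, 5 lower and a median of -0.09. Among all genes 22.7% were called higher and 23.5% lower. NGFR, called higher, had a parental mean of 9.24 units, under the filter level, and passed it with its isolate signals (mean 69 units). The count is therefore a description. S100A2, a basal calcium-binding protein, fell by 2.65 ± 0.11, the caveolin CAV2 by 1.03 ± 0.067 and SNAI2, a repressor of epithelial genes, by 1.24 ± 0.089 on the log2 scale. The growth factor receptor gene EGFR rose by 0.81 ± 0.084 (limma adjusted p = 4.85e-05), although its 1 tested probe set without a shared-probe suffix gave -0.045 (limma adjusted p = 0.916 in the fit of probe sets). ZEB1 rose by 0.57 ± 0.078 (limma adjusted p = 0.000261), and the others called higher were ACTA2, NGFR and FSCN1. Markers of leukocytes, endothelium and fibroblasts were dim: of 13 with a named probe set, 3 reached the filter level. Of these, CD14 was lower (limma adjusted p = 0.0356), with an isolate mean of 41.5 units, under that level, and an S1a mean of 56.9 units. This call ended with no filter (0.0757), with quantile normalization (0.0968), with median centring (0.0708) and without parental replicate 2 (0.206), S1a replicate 1 (0.0999), S1b replicate 1 (0.0571) or S1b replicate 2 (0.0582), and COL1A1 and KDR did not pass. The summed leukocyte signal was 80.4 to 156 units on the isolate arrays and 160 to 236 on the parental arrays, and the fibroblast sum 130 to 157 and 204 to 317 units. The endothelial sum was 126 to 162 and 80.9 to 119 units. The part of these low signals in the results above was not tested.

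**Figure D5:**
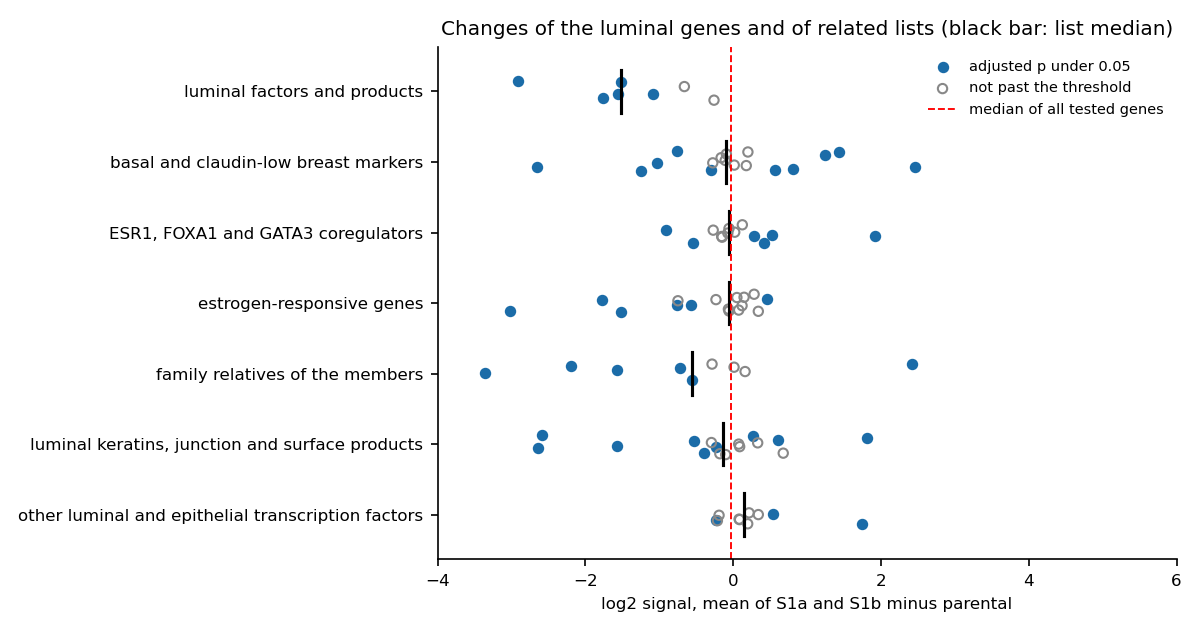
Log2 signal of the mean of S1a and S1b minus the parental line for each tested gene of the luminal factors and products and of 6 related lists (the leukocyte, endothelial and fibroblast markers are not drawn); filled points passed limma's adjusted threshold, open points did not, black bars are list medians and the dashed line is the median of all tested genes. The luminal factors and products have a median of -1.52, and the other lists have medians between -0.56 and 0.14.

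The genes whose log2 signals over the 6 arrays ran most like GATA3 were ABHD17A (Pearson r = 0.999), USP47 (0.995) and RRBP1 (0.995). For MUC1 they were GTF2F1 (0.995), POLR2J (0.995) and NFKBIA (0.991). The closest to CA12 was S100A6 (0.998), to AGR2 YY1AP1 (0.991), to TFF1 ZKSCAN3 (0.988), to SPDEF GSR (0.986) and to ESR1 IRF9 (0.97). Each was picked as the highest among all other tested genes over 6 arrays that fall into 3 groups, so values near 1 arise readily and carry no test. The sizes differ: ABHD17A read 1233 and 1212 units in S1a, 1062 and 1069.9 units in S1b and 1546 and 1629.9 units in the parental line, a far smaller change than that of GATA3.

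The 2 nearest tested genes on each side of the 7 tested members gave 28 neighbours, of which 6 were lower and 7 higher in the mean of both isolates, near the shares of all genes (23.5% and 22.7%). Around GATA3, KIN, USP6NL and CELF2 rose by 0.67 ± 0.11, 0.65 ± 0.12 and 1.41 ± 0.094 (log2, SE; limma adjusted p = 0.000713, 0.00197 and 2.87e-06), against the direction of GATA3. Around AGR2, AHR and SNX13 fell by 0.88 ± 0.12 and 0.77 ± 0.14, while BZW2 and TSPAN13 did not pass. Beside TFF1, TFF2 fell as given above and U2AF1 rose by 0.73 ± 0.08. Beside SPDEF, RPS10 and ILRUN fell by 0.52 ± 0.12 and 0.44 ± 0.13, and beside ESR1, RMND1 and SYNE1 rose by 0.62 ± 0.16 and 1.76 ± 0.61. Beside MUC1 only SLC50A1 of 4 neighbours passed (-0.6 ± 0.16), and beside CA12 only RAB8B did (0.66 ± 0.11).

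Across the arrays, the trimmed mean signal was 500.2 units on each, the median signal ran from 87.6 to 91.7 units on the isolate arrays and was 106 and 98.6 units on the parental arrays. The poly-A spike-in transcripts, added before labelling, had mean log2 signals of 8.1 to 8.68 on the isolate arrays and of 7.5 and 8.28 on the parental arrays. Their part in the changes of the members was not tested, and the calls of the 5 members held in the mean of both isolates with quantile normalization and with median centring.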

How the data were processed

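MAS5 is the tool named by the submitters' processing notes, without a version, for the deposited intensity values, which are 1 linear signal per probe set and array. From the values, the mean after trimming 2% at each end was 500.2 units on every array. No scanner file or detection call was analysed here. After removal of 62 control probe sets, 19064 of the probe sets had 1 gene symbol, 1043 several and 2108 none; symbols were updated through gene identifiers in RefSeq (GRCh38.p14). The deposited intensity values were analysed as log2(signal + 3.95), the pseudocount being the 10th percentile of all signals, so changes of dim genes are understated. Probe sets with a mean below the 40th percentile (44 units) were not tested. A gene took its brightest probe set. limma 3.58.1 (R 4.3.3) estimated the 3 population means from the 6 arrays together, with a variance trend (7 prior and 3 residual degrees of freedom), and p-values were adjusted by Benjamini-Hochberg at 0.05; a second fit took all 11860 probe sets. Gene values in the text come from the fit of genes unless a probe set is named. A group mean under 44 units gives only a bound, written "at least": the other group's mean divided by 44. The number of arrays, 2 per population, limits the precision.

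The members, the gene lists and the rule for named genes (all members, up to 4 genes of each list by p-value, tested family relatives and the genes most correlated with a tested member) were chosen with earlier results of these data known. CCND1, ZFPM2, TSPAN1, NGFR, ACTA2 and FSCN1 were named outside this rule, after their values were seen. The separate values of VIM, CAV1, ZEB1, KRT18 and ERBB3 were also added then. The procedure was tested on simulated data. Alternatives covered normalization, pseudocount, filter, probe set choice, variance trend, each array left out and a replicate block; for the related lists they were added after seeing the data.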

Additional observations from a re-analysis of the deposited data

How the results depend on the processing

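With the filter at the 60th percentile 2 members were tested and passed against the parental line in each comparison (S1a, S1b and the mean of both), and 2 probe sets passed. With shared-probe suffixes left out, 4 members were tested and 2 passed in S1a, 3 in S1b and 3 in the mean of both, and 3 probe sets passed; both settings test fewer members. Leaving out 1 array at a time, the number of members called ran from 2 to 4 in S1a, from 4 to 5 in S1b, from 4 to 5 in the mean of both and from 0 to 1 between the isolates, and that of probe sets from 8 to 10. The call of 2 in S1a came without S1a replicate 1. The replicate numbers showed no pairing (correlations of replicate differences between populations of -0.058, -0.0046 and -0.067 over 7791 genes). With the replicate block 4 members passed in S1a, 5 in S1b, 5 in the mean of both and 0 between the isolates, as without it; of the genes named from the related lists XBP1 lost its call (limma adjusted p = 0.0671).

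Of 404 values of single members under alternatives, 383 kept their direction and side of the threshold, 5 lost the call, 2 gained it and 14 turned sign; none of the 14 was called. SPDEF in S1a turned to 0.052 with quantile normalization, 0.048 with median centring and 0.17 with the mean of probe sets. With 1 array left out SPDEF ran from -0.48 to 0.21 in S1a, from -0.59 to 0.022 in the mean of both and from -0.59 to 0.053 between the isolates. ESR1 turned to 0.26 in S1a, 0.53 in S1b and 0.40 in the mean of both with the mean of probe sets, and ran from -0.43 to 0.56 in S1b with 1 array left out, turning without S1b replicate 1. TFF1 between the isolates turned to -0.018 with quantile normalization, and ran from -0.48 to 0.49 with 1 array left out. Among genes of the related lists (mean of both), EGFR turned to -0.045 without shared-probe suffixes, COL1A1 to 0.25, ELF1 to -0.21 and RARA to -0.23 with the mean of probe sets. With 1 array left out KDR ran from -0.42 (without parental replicate 1) to 1.31 (without parental replicate 2, where it passed), and ELF1 from -0.11 to 0.13. The causes were not tested.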
